A study of Mus musculus with 4 samples.

Results

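Mecom and Hlf are 2 genes for transcription factors of blood stem cells, taken here by their symbols from the 56941 features listed for every cell. They were followed through 4 single-cell RNA libraries of mouse bone marrow, as a level over the whole library, as a level within marker-gated cell types and maturation stages, and cell by cell. The genes were chosen with their levels in these libraries known, so the levels are a description and carry no test.

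Each library stands for a group of its own, so there are no replicates in any comparison. A pair of libraries holds normal marrow cells labelled ckit+, the surface receptor used to enrich stem and progenitor cells, of wild-type (WT) and Rbm5 knockout (KO) genotype. The other pair holds leukaemia cells labelled MLL-AF9, WT and Rbm5 KO, described as coming from an equal endpoint of a first transplantation. MLL-AF9 joins MLL to AF9 and drives acute myeloid leukaemia, and the study's stated hypothesis was that the RNA-binding protein RBM5 governs a self-renewal programme of such cells. Strain, age, the deleted part of Rbm5, the driver of the deletion, the way the fusion was introduced and the number of mice or leukaemias behind a library are not given in the sources used here.

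After filtering, 12337 WT and 13241 KO cells of c-Kit+ marrow and 12689 WT and 11353 KO leukaemia cells were kept, with between 86333680 and 95578732 unique molecular identifiers (UMIs, the counted RNA molecules) per library and medians of 5155, 5276, 5792 and 7304 UMIs per cell. Pairs of libraries shared between 38 and 54 cell barcodes. Rbm5 itself was at 75.5, 90.0, 160 and 116 CPM (a gene's UMIs scaled to the library total) in that order, so its transcript was present in both libraries labelled KO. Since the deleted part is not known, these counts do not check the labels, and groups are named by label. Kit transcripts, the RNA of the sorted receptor, were detected in 17.0% of WT and 17.9% of KO c-Kit+ cells, and cells with neutrophil granule markers were the most numerous gated class there. Intervals are at 95% and hold only the error of counting, with nothing of how mice vary.

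Mecom codes for EVI1 and its longer form MDS1-EVI1, zinc finger proteins of the PRDM family that recruit co-repressors and keep blood stem cells in a long-lived, self-renewing state. The longer form starts at an upstream promoter and carries a PR domain, whereas EVI1 starts at a downstream promoter inside the same gene. High EVI1 marks a group of acute myeloid leukaemias, among them many with MLL fusions. Hlf codes for a leucine zipper factor of the PAR bZIP family, whose transcript is among the most restricted to stem cells in normal marrow and is lost as cells enter the lineages.

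Mecom (ENSMUSG00000027684) lies on the minus strand of chromosome 3 between 29951296 and 30548008 of GRCm38, with 17 annotated transcripts, 11 of them coding. Hlf (ENSMUSG00000003949) lies on the minus strand of chromosome 11 between 90336536 and 90390895, with 6 annotated transcripts, 2 of them coding. RefSeq gives Mecom a pair of start sites 497 kb apart and Hlf a single start site in its table for GRCm38.p6. The 250 bases before each start are shown because 3′ tag counts do not tell the Mecom forms apart, and because transcripts counted inside Mecom fall between its starts. The windows are chr3:30509760-30510009 for the upstream start, chr3:30013205-30013454 for the downstream start and chr11:90390918-90391167 for Hlf, all minus strand. Capitals mark exact matches, on either strand, to any of TTACGTAA (the PAR bZIP palindrome), TGACGTCA (the cyclic AMP response palindrome), GACAAGATA (a core of the EVI1 zinc finger site), AGATAA (the erythroid and stem cell factors of the zinc finger class that includes Gata1 and Gata2), TGACAG (MEIS factors) and TGTGGT (RUNX factors).
Mecom upstream start: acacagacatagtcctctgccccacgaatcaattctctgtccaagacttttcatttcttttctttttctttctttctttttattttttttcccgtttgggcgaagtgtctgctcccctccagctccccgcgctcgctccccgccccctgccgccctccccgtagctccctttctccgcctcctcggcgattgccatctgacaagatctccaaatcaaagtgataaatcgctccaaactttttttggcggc
Mecom downstream start: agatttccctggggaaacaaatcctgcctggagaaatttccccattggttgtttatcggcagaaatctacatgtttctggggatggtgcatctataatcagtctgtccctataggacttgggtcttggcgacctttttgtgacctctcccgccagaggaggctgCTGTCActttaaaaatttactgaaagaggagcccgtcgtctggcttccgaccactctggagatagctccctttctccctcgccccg
Hlf start: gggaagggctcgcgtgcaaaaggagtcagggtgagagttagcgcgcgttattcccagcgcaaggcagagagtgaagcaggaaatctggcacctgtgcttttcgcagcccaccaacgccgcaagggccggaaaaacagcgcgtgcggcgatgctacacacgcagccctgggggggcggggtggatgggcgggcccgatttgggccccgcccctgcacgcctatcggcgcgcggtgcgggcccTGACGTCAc

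The Hlf window held the letters TGACGTCA from 9 to 2 bases before the start, a palindrome present in 1.55% of 32851 RefSeq promoter windows of the same length. The downstream Mecom window held TGACAG on the opposite strand, from 86 to 81 bases before the start, as did 15.9% of all windows. None of the searched letters lay in the upstream Mecom window. TTACGTAA was in 0.113%, GACAAGATA in 0.107%, AGATAA in 9.99% and TGTGGT in 14.0% of all windows, and none of these was in any of the 3. The Hlf window was 67.2% G and C, with 26 CG pairs. The Mecom windows were 50.8% G and C with 14 CG pairs upstream and 50.4% with 8 downstream, against medians of 52.4% and 6 over all windows.

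Mecom was a transcript of few marrow cells and of most leukaemia cells, and Hlf was higher in marrow. Mecom gave 1813 UMIs (21.0 CPM, 20.0 to 22.0) in WT c-Kit+ cells and 1870 UMIs (19.6 CPM, 18.7 to 20.5) in KO c-Kit+ cells. In leukaemia it gave 82691 UMIs (954 CPM, 947 to 960) in the WT library and 114918 UMIs (1215 CPM, 1208 to 1222) in the KO library. The leukaemia libraries are both far above the marrow libraries, which lie close to each other.

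Hlf gave 1677 UMIs (19.4 CPM, 18.5 to 20.4) in WT and 1613 UMIs (16.9 CPM, 16.1 to 17.7) in KO c-Kit+ cells. It gave 83 UMIs (0.957 CPM, 0.763 to 1.19) in WT and 144 UMIs (1.52 CPM, 1.28 to 1.79) in KO MLL-AF9 cells. Both leukaemia libraries are far below both marrow libraries.

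Within the WT label, Mecom was 45.4-fold higher in leukaemia (43.4 to 47.6), and 12 of the 10037 genes that averaged at least 5 CPM had a larger log2 ratio. Within the KO label it was 62.1-fold higher (59.3 to 65.0), and 7 of 9663 genes exceeded it. Hlf was 20.3-fold lower in leukaemia within the WT label (16.3 to 25.6) and 11.1-fold lower within the KO label (9.34 to 13.2). Weighting the classes alike in both libraries moved the log2 ratio of Mecom from 5.44 to 6.48 within the WT and from 5.89 to 8.68 within the KO label, and that of Hlf from -3.38 to -2.93 and from -2.83 to -1.85. On the scale of log2(CPM + 1), 22.0% of genes within the WT label differed by 2-fold or more, 16.0% upward and 6.01% downward. Within the KO label the share was 25.8%, with 12.7% upward and 13% downward. Since the genes were chosen on these levels nothing is read from those shares.

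**Figure D1:**
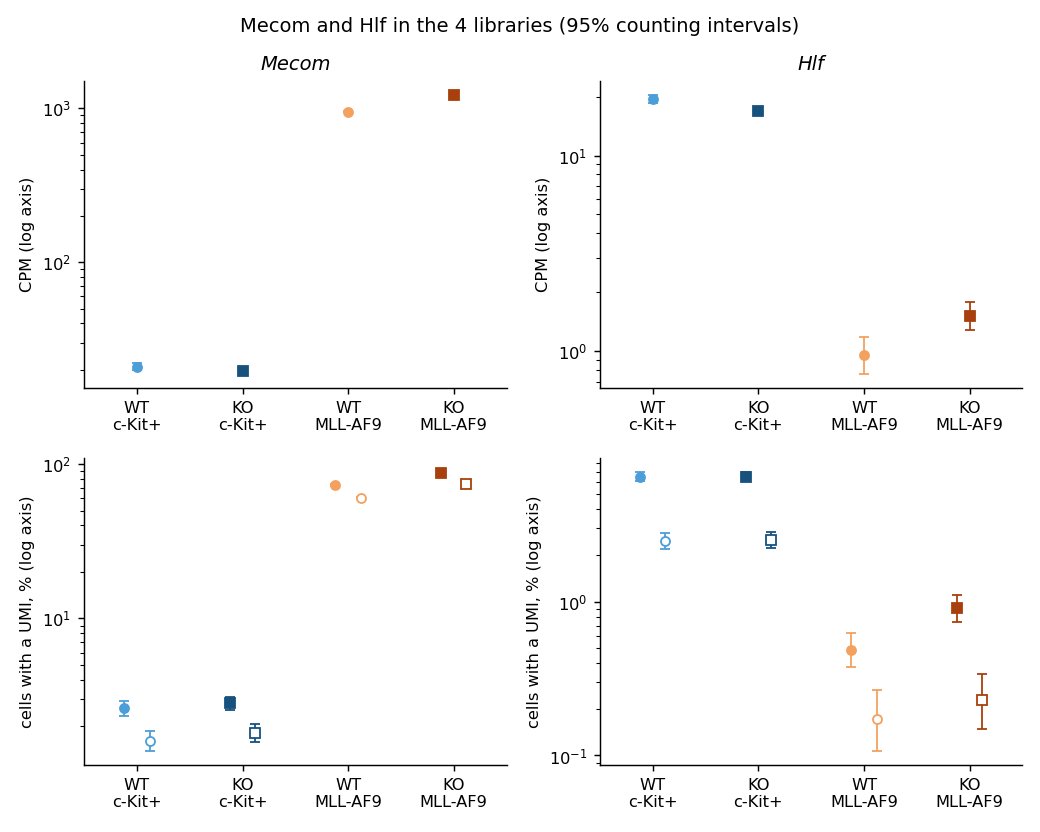
Levels in CPM (top, log axis) and shares of cells with a UMI in % (bottom, log axis) of Mecom (left) and Hlf (right) in each library, with 95% counting intervals; filled points in the lower panels are all kept cells and open points are cells thinned to 2000 UMIs. Mecom is at 21.0 and 19.6 CPM in c-Kit+ and at 954 and 1215 CPM in MLL-AF9 libraries, and Hlf at 19.4 and 16.9 against 0.957 and 1.52 CPM.

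Detection showed the same contrast. Of c-Kit+ cells, 2.63% in WT (2.35 to 2.92) and 2.82% in KO (2.55 to 3.12) held a Mecom UMI, and of leukaemia cells 73.2% in WT (72.4 to 74.0) and 88.0% in KO (87.4 to 88.6) did. With each cell thinned to 2000 UMIs, which left out between 508 and 1772 shallower cells per library, the shares were 1.60%, 1.82%, 60.3% and 74.0%. Positive leukaemia cells held a median of 6 UMIs in WT and 9 in KO, and 3228 WT and 4575 KO cells held 10 or more. In c-Kit+ libraries the few positive cells were also rich in it: 63 WT and 52 KO cells with 10 or more UMIs held 56.7% and 44.2% of all Mecom UMIs. Hlf was found in 6.52% of WT and 6.50% of KO c-Kit+ cells, but 72.0% and 74.0% of those cells held a lone UMI. In leukaemia 62 WT cells (0.489%, 0.375 to 0.626) and 103 KO cells (0.907%, 0.741 to 1.10) held an Hlf UMI.

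Cells were then placed in classes by the number of marker genes with a UMI, with cell types such as T, B, erythroid and megakaryocyte cells taken out first and myeloid cells then ordered from stem cells to late neutrophils. Neither Mecom nor Hlf was a marker. Marker counts depend on depth, so cells just under a cut are left in a neighbouring class: in the WT c-Kit+ library 143 cells lay at the cut of 5 of 12 stem markers and 216 were 1 marker below it.

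In c-Kit+ marrow, Mecom was highest in the stem and multipotent progenitor gate and the megakaryocyte gate. The 519 WT cells of the stem gate, 4.21% of the library, held 84.4% of its Mecom UMIs, at 237 CPM (226 to 250). The 622 KO cells of that gate held 84.1%, at 193 CPM (183 to 202). A Mecom UMI was found in 45.3% and 42.8% of those cells, at medians of 11648 and 12114 UMIs, against 1.61% of WT and 0 of 159 KO cells of the T or NK gate, at medians of 3248 and 3002 UMIs. The 51 WT and 72 KO cells of the megakaryocyte gate were at 270 CPM (231 to 314) and 192 CPM (164 to 224), with the transcript in 51.0% and 50% of cells. Of those WT cells 21 lay at the cut of 3 megakaryocyte markers, and a gate with 1 marker more was at 135 (WT) and 181 CPM (KO). Cells of the megakaryocyte gate also held a median of 5 stem markers in WT and 4 in KO, beside 4 megakaryocyte markers in each, and the part of stem-like cells in its levels was not tested.

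Mecom was near the floor in the maturing lineages of c-Kit+ marrow. In the largest class, cells with secondary granule genes such as Ltf and Camp, 11 UMIs were found in 5518 WT cells (0.299 CPM) and 19 in 5725 KO cells (0.464 CPM). Monocytes gave 1 UMI in 531 WT cells and 1 in 664 KO cells, and erythroid cells, among the most deeply sequenced with medians of 13558 and 9697 UMIs, were at 0.737 and 0.773 CPM. Primary granule cells, which express the earliest granule enzymes such as Mpo and Elane, were at 1.81 (WT) and 0.685 CPM (KO). The T or NK gate, which should lack Mecom, held 3 UMIs in 124 WT cells and 0 in 159 KO cells, where 0 allows, at 3 counts, a level of up to 5.56 CPM and a UMI in up to 1.89% of cells.

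Hlf was highest in the same stem gate but did not stop there. It was at 156 CPM (147 to 166) in WT and 120 CPM (113 to 128) in KO stem gate cells, found in 47.2% and 45.8% of them, and those cells held 60.0% and 60.8% of the Hlf UMIs of their library. The megakaryocyte gate was at 73.4 CPM (53.9 to 97.6) in WT and 35.6 CPM (24.0 to 50.8) in KO, and with 1 marker more at 45.1 and 24.1 CPM. A lower level ran through the granule stages, with 8.59 and 9.93 CPM in primary granule cells and 11.4 CPM (10.4 to 12.6) and 9.95 CPM (9.01 to 11) in secondary granule cells of WT and KO. Late neutrophils were at 2.29 and 3.23 CPM, monocytes at 2.21 and 1.31 CPM, B cells at 2.82 and 2.99 CPM, and erythroid cells at 1.25 and 0.773 CPM. Secondary granule cells held 25.1% and 25.3% of all Hlf UMIs. The intervals of the secondary granule class lie above those of the late neutrophil, monocyte, B cell and erythroid classes in both libraries, although the erythroid cells were deeper (median 13558 against 5895 UMIs in WT). They do not lie above those of the basophil and mast gate (9.42 and 11 CPM), the macrophage gate (31.5 and 12.2 CPM) or the cells in no gate (18.5 and 9.53 CPM), so the low level was not particular to the granule stages.

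The T or NK gate sets a limit on how this low level can be read. It held 7 Hlf UMIs in each c-Kit+ library, or 12.9 CPM in WT (5.19 to 26.6) and 13 CPM in KO (5.22 to 26.8). An Hlf UMI was found in 4.03% and 3.14% of its cells, at medians of 3248 and 3002 UMIs, and in 6.94% and 6.64% of secondary granule cells, at 5895 and 6250 UMIs. Thinned to 2000 UMIs, the shares were 1.83% (0.223 to 6.47) and 2.24% (0.464 to 6.4) in the T or NK gate and 2.08% (1.72 to 2.5) and 1.90% (1.56 to 2.30) in secondary granule cells, so the granule level was not distinguishable from that gate. Thinned monocytes were at 0.393% and 0.159%. Mitotic secondary granule cells were at 11.6 CPM in WT (10.2 to 13.1) and others at 11.2 (9.59 to 13.1), and the KO values were 10.6 (9.42 to 11.9) and 8.71 (7.25 to 10.4), with intervals that overlap.

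**Figure D2:**
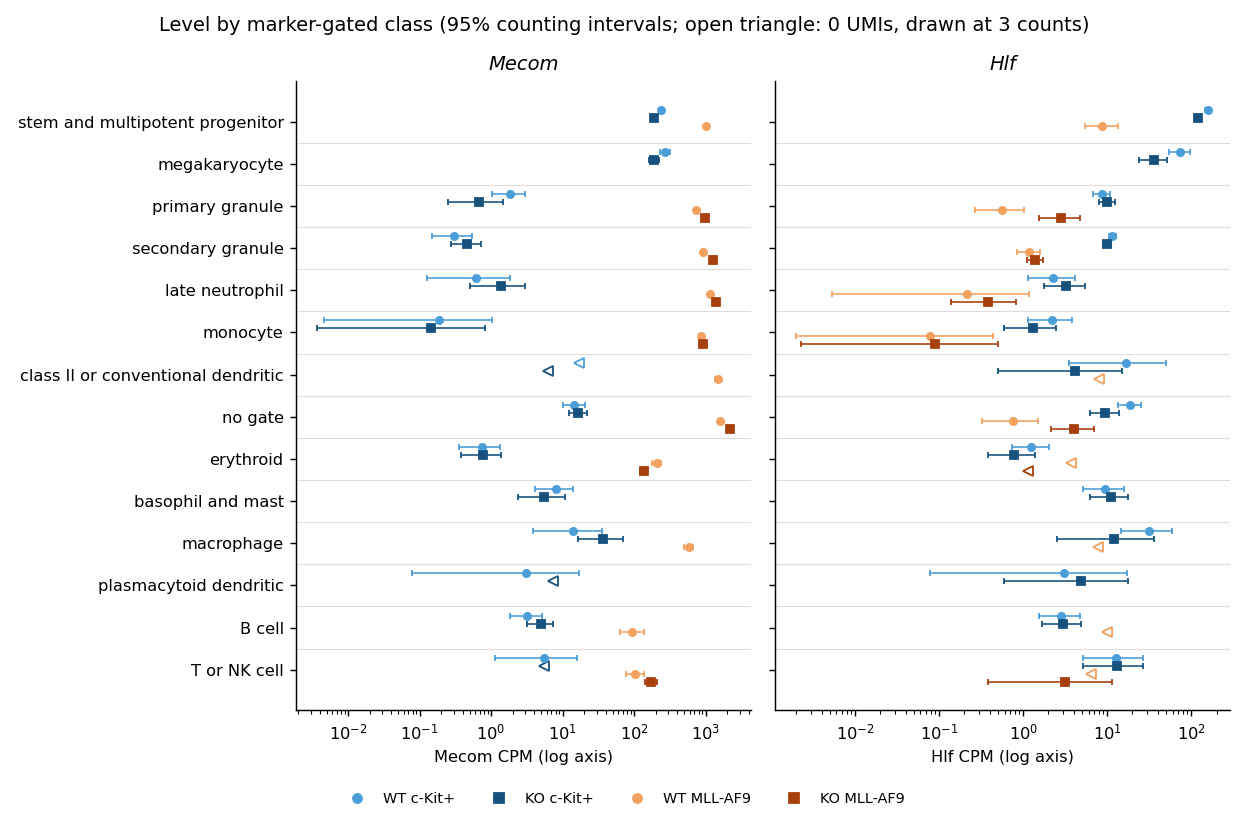
CPM (log axis) of Mecom (left) and Hlf (right) in each marker-gated class with 50 or more cells, by library, with 95% counting intervals; open triangles mark classes with 0 UMIs and stand at the level of 3 counts. In c-Kit+ libraries Mecom is at 237 and 193 CPM in the stem gate and under 2 CPM in the granule classes, while in MLL-AF9 libraries it is between 740 and 1390 CPM in the granule and monocyte classes and Hlf is at 8.73 CPM or less.

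Both genes were highest in the normal marrow cells with the most stem markers. In WT c-Kit+ cells Mecom was at 0.282 CPM with none of the 12 markers, 0.604 with 1 or 2, 9.21 with 3 or 4, 91.1 with 5 or 6 and 381 with 7 or more. In KO c-Kit+ cells the same steps gave 0.629, 1.0, 8.36, 64.6 and 308 CPM. Hlf was level over the lower steps in WT, at 8.52, 6.13 and 9.94 CPM, and then reached 58.4 and 236 CPM. In KO its steps were 6.96, 6.76, 7.85, 33.3 and 184 CPM. Mecom thus was higher at every step, while Hlf was clearly higher only from 5 markers on.

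In leukaemia Mecom had no such gradient. It was at 904, 989, 922 and 1007 CPM in WT and at 1190, 1278, 909 and 859 CPM in KO from 0 to 5 or 6 markers, the last KO step holding 27 cells. Hlf kept a gradient at a far lower level. It was at 0.700, 0.789 and 0.645 CPM in WT cells with up to 4 markers and 7.94 CPM (4.71 to 12.6) in the 161 cells with 5 or 6. The 18 UMIs of that last WT step lay in 4.35% of its cells, so its interval is too narrow. In KO Hlf was at 0.550, 1.59 and 5.33 CPM (3.41 to 7.93) over the 3 lower steps and 35.8 CPM (21.6 to 55.9) in the 27 cells with 5 or 6. In that last KO step 1 cell held 13 of the 19 UMIs, and without it the level was 11.4 CPM. The interval of this step, which treats UMIs as independent, is thus too narrow as well.

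**Figure D3:**
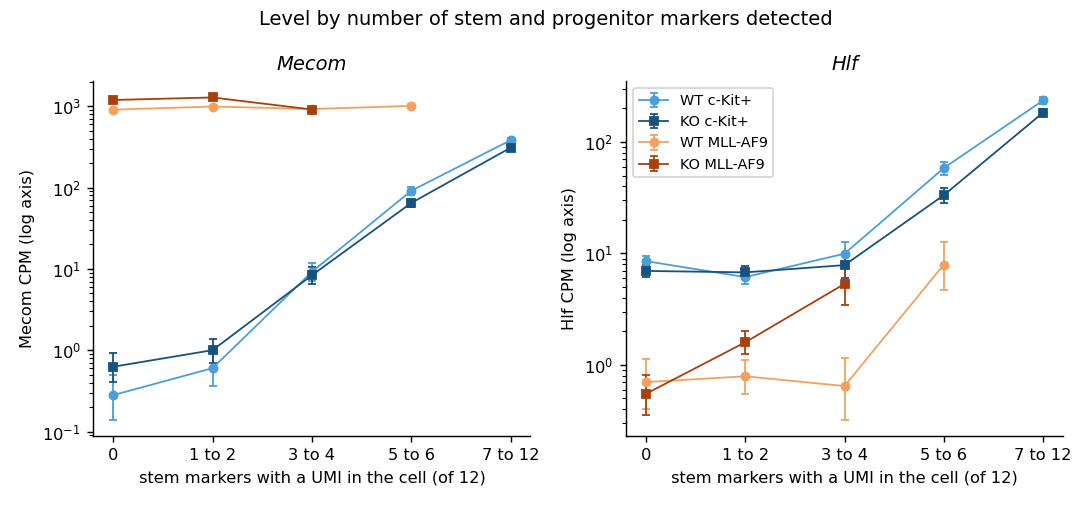
CPM (log axis) of Mecom (left) and Hlf (right) against the number of 12 stem and progenitor markers with a UMI in the cell, in steps with 50 or more cells, with 95% counting intervals. In c-Kit+ libraries Mecom climbs from 0.282 to 381 CPM in WT and from 0.629 to 308 CPM in KO, whereas in MLL-AF9 libraries it stays between 904 and 1278 CPM.

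Normal cells with Mecom were mostly cells with Hlf, but not the reverse. Among c-Kit+ cells with a Mecom UMI, 63.6% (58.1 to 68.8) in WT and 59.6% (54.5 to 64.6) in KO also held an Hlf UMI, against 4.98% and 4.96% of cells without Mecom. After thinning to 2000 UMIs the shares were 45.1% against 1.80% in WT and 41.6% against 1.79% in KO. Within the stem gate alone the contrast was smaller, at 75.3% against 23.9% in WT and 72.9% against 25.6% in KO. Read from the other side, 25.6% of WT and 25.9% of KO c-Kit+ cells with Hlf held Mecom, and 598 WT and 638 KO cells held Hlf alone. Of cells with 3 or more Hlf UMIs 117 of 134 in WT and 112 of 133 in KO held Mecom, whereas of cells with a lone Hlf UMI 53 of 579 and 76 of 637 did.

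In leukaemia this pattern was not seen. An Hlf UMI was found in 0.495% (0.363 to 0.660) of Mecom-positive and 0.470% (0.269 to 0.762) of Mecom-negative WT cells, and in 0.890% (0.716 to 1.09) and 1.03% (0.565 to 1.72) of KO cells. These intervals overlap in both libraries.

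**Figure D4:**
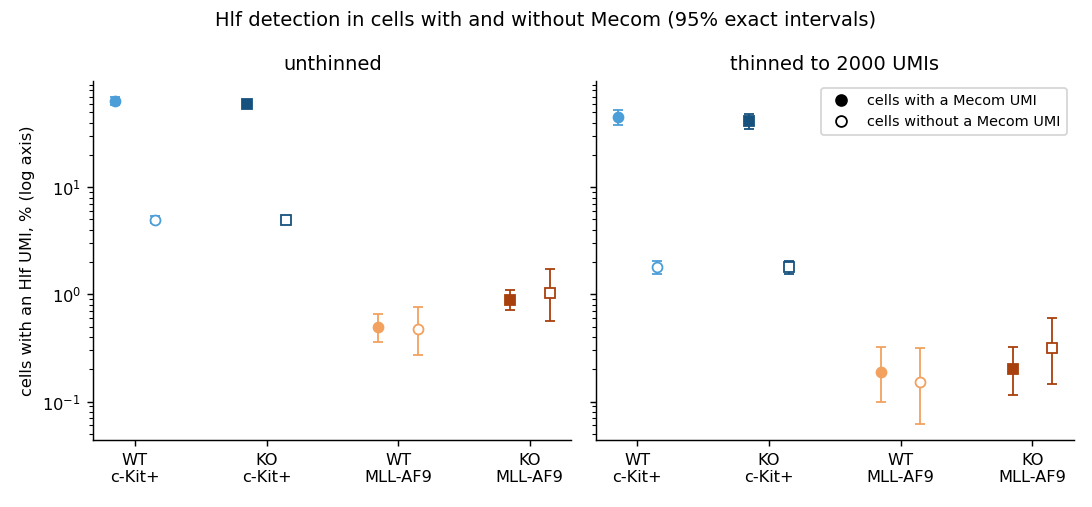
Share of cells with an Hlf UMI in % (log axis) among cells with (filled) and without (open) a Mecom UMI, in each library, for all UMIs (left) and after thinning to 2000 UMIs per cell (right), with 95% exact intervals. The shares are 63.6% and 4.98% in WT c-Kit+ and 59.6% and 4.96% in KO c-Kit+ cells, and 0.495% and 0.470% in WT and 0.890% and 1.03% in KO MLL-AF9 cells.

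Across the maturation stages of the leukaemias Mecom was high throughout. In the WT library it was at 740 CPM (727 to 752) in primary granule, 913 (903 to 923) in secondary granule, 1137 (1107 to 1168) in late neutrophil and 870 (854 to 886) in monocyte gates. In the KO library these classes were at 997 (970 to 1025), 1257 (1247 to 1266), 1390 (1372 to 1409) and 928 (910 to 946) CPM. Cells in no gate, which were shallow with medians of 2933 and 2463 UMIs, were highest at 1589 and 2204 CPM. Along the granule series the level thus increased from primary to secondary to late stages in both libraries. The intervals do not overlap, but they treat UMIs as independent. Mitotic cells made up 34.6%, 24.9% and 1.04% of these WT classes. Among cells not mitotic the rise was smaller, at 930, 1058 and 1174 CPM in WT and 1191, 1344 and 1397 CPM in KO. Median depth fell along the same series, at 9348, 7270 and 3272 UMIs in WT and 10675, 8661 and 4995 UMIs in KO. The part of depth in the rise was not tested. In normal marrow the same 3 classes were at 1.81 CPM or less.

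The stem gate of the leukaemias was small, with 168 WT and 28 KO cells. Its WT cells were at 1016 CPM (976 to 1057), which was 4.28-fold (4.02 to 4.57) above the stem gate of WT c-Kit+ marrow, the place of highest normal expression among classes of over 100 cells. The gates held unlike cells, with a median of 5 stem markers in leukaemia and 7 in marrow, and with 1 marker more the fold was 2.96, from 912 and 308 CPM. Outside that gate the WT gap was larger, at 408-fold in primary granule cells (247 to 729) and 3056-fold in secondary granule cells (1708 to 6123). The normal level of the latter rests on 11 UMIs, and with 1 marker more in the gate it was 0.135 CPM against 891 CPM in leukaemia. The secondary granule gap was 2711-fold (1736 to 4502) within the KO label.

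Lymphoid and erythroid gates of the leukaemia libraries held less Mecom than the myeloid classes, but not none. The T or NK gate was at 104 CPM (77.0 to 138) in WT and 171 CPM (141 to 207) in KO, found in 11.7% and 16.5% of its 103 cells in each library, at medians of 4360 and 5898 UMIs. Erythroid cells were at 208 and 136 CPM, with Mecom in 24.4% and 27.2% of cells, at medians of 8587 and 9418 UMIs. The WT B cell gate was at 95 CPM, with Mecom in 15.5% of cells. The KO B cell gate was at 395 CPM in 13 cells, and the WT macrophage gate, of 52 cells, at 580 CPM (507 to 661) with Mecom in 44.2% of cells. Lymphoid and erythroid cells should lack Mecom, so the shares there are the level to set beside 73.2% and 88.0% of all cells. Whether free RNA, leukaemic cells caught in these gates or undetected doublets gave these counts was not tested. Thinned to 2000 UMIs, 8.16% and 9.09% of T or NK cells, 9.46% and 13.9% of erythroid cells and 9.38% of WT B cells held Mecom. Hlf gave 0 UMIs in the WT T or NK, B and erythroid gates, which at 3 counts allows up to 6.37, 9.82 and 3.69 CPM, and 2 in the KO T or NK gate.

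Mecom was lower in mitotic leukaemia cells of the primary and secondary granule classes, where mitotic means 5 or more of 10 mitotic markers. In primary granule cells it was at 515 CPM against 930 in WT and at 517 against 1191 in KO. In WT secondary granule cells it was at 658 CPM (644 to 672) when mitotic and 1058 CPM (1044 to 1071) otherwise. In KO secondary granule cells it was at 1036 (1020 to 1052) and 1344 CPM (1333 to 1355). Thinned to 2000 UMIs, 52.7% and 65.1% of these WT cells and 70.0% and 78.7% of these KO cells held a UMI. KO monocytes did not follow, with 968 CPM in mitotic and 911 CPM in other cells. The normal stem gate had the same direction for both genes: WT mitotic cells were at 128 CPM of Mecom and 85.2 CPM of Hlf, against 404 and 265 CPM in the others, and KO cells at 110 and 68.6 CPM against 349 and 217 CPM.

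Depth moved with this. With leukaemia cells ranked by UMI count into 5 equal bins, Mecom went from 1645 CPM in the shallowest to 663 CPM in the deepest bin of WT cells, and from 1670 to 1022 CPM in KO cells, and 61.8% and 49.9% of the deepest cells were mitotic. Among cells not called mitotic, the same bins went from 1664 to 787 CPM in WT and from 1633 to 1139 CPM in KO. The part of depth in the class levels was not tested further.

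The residue of Hlf in leukaemia sat mostly in single UMIs. Of positive cells 79.0% in WT and 79.6% in KO held 1 UMI, and 5 cells in each library held 3 or more. Those 5 WT cells had 5 to 8 stem markers and all lay in the stem gate, where the library median was 1 marker. The 5 KO cells had 3 to 9 stem markers, and 3 of them lay in the stem gate. All 10 held Mecom UMIs, between 2 and 37, and all 10 held Angpt1, the ligand of the stem cell receptor TIE2. The highest Hlf count in leukaemia was 13 UMIs, in a KO cell of the stem gate. The stem gate held 25.3% of the Hlf UMIs of the WT and 16.0% of those of the KO library. Whether these are residual normal stem cells or leukaemic cells was not tested.

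The comparison of the leukaemia libraries by label gave a higher level of both genes in the library labelled KO. Mecom was 1.27-fold higher (1.26 to 1.28), a log2 ratio of 0.35 against a median of -0.38 over 9899 genes, of which 1362 had a larger ratio. In this comparison 18.2% of genes differed by 2-fold or more, 5.52% upward and 12.7% downward, and Mecom did not. It was higher in the library labelled KO in 6 of 7 classes with 50 or more cells in each library, from 1.07-fold in monocytes (1.04 to 1.10) to 1.38-fold in secondary granule (1.36 to 1.39), 1.39-fold in ungated (1.35 to 1.43) and 1.65-fold in T or NK cells (1.17 to 2.36). Erythroid cells went the other way, at 0.654 (0.543 to 0.790). Both the T or NK and the erythroid gate should lack Mecom. Their UMIs came from 12 WT and 17 KO T or NK cells and 19 WT and 59 KO erythroid cells. The intervals of these gates, which treat UMIs as independent, are thus too narrow. With median-ratio size factors, which moved the median of all genes from -0.38 to -0.04 and the genes past 2-fold from 546 higher and 1255 lower to 855 and 407, the log2 ratio of Mecom was 0.70.

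Hlf was 1.59-fold higher (1.21 to 2.11) in the leukaemia library labelled KO, from 83 and 144 UMIs, and 1.45-fold without the cell that held 13 of them. Its mean of both libraries was under 5 CPM, so it was not among the genes counted. Secondary granule cells, with most of those UMIs, were at 1.17 (WT) and 1.40 CPM (KO), which gives 1.19 with an interval from 0.808 to 1.78 that includes 1, and 0.820 with 1 marker more in the gate. Primary granule cells differed more, at 0.560 and 2.82 CPM, a ratio of 5.04 (2.08 to 12.7) from 10 and 14 UMIs.

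In c-Kit+ marrow the differences by label were small. Mecom was at 0.932 of its WT level in the library labelled KO (0.873 to 0.994) and Hlf at 0.869 (0.811 to 0.931). In this comparison 0.0941% of genes differed by 2-fold or more, 0.0627% upward and 0.0314% downward, and neither gene did. The ratio of Mecom turned to the other side of 1 when each cell had equal weight, with a log2 ratio of 0.0012. Within the stem gate, the ratio was 0.812 for Mecom (0.756 to 0.871) and 0.768 for Hlf (0.703 to 0.840), and 44.1% of its WT and 46.9% of its KO cells were mitotic. Both steps of high marker number had the same direction, and so had mitotic and other cells of the gate taken apart. The ratio in the megakaryocyte gate was 0.711 for Mecom (0.570 to 0.886) and 0.485 for Hlf (0.296 to 0.783), from 51 and 72 cells. With 1 marker more the ratio of Mecom in that gate turned to 1.34, and that of Hlf was 0.534. How far such ratios vary between mice of one genotype cannot be told from 1 library each.

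The relatives of both genes differed less between marrow and leukaemia. Hlf belongs with Dbp and Tef to the PAR bZIP factors, which share a DNA site with the repressor Nfil3 (E4BP4). Dbp was at 2.57, 2.06, 3.37 and 3.49 CPM, in the order of marrow WT and KO and then leukaemia WT and KO, and Tef at 2.83, 2.54, 5.71 and 2.49 CPM. Nfil3 was at 18.3, 18.6, 25 and 81.7 CPM, so the library labelled KO stood out among the leukaemias, 3.27-fold (3.12 to 3.43) above WT. Of the 4 genes, Hlf was the one at least 2-fold lower in leukaemia within both labels.

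Of the 15 genes of the PRDM family, 7 reached a mean of 5 CPM in WT leukaemia and WT c-Kit+ cells, 5 of them higher in leukaemia and 3 of those past 2-fold, Mecom included. Their median log2 ratio was 0.55 against 0.27 over all genes, and with size factors 4 were higher and 3 lower. The shares over all genes were 66.1% higher and 16.0% past 2-fold upward, and 46.5% higher with size factors. Mecom itself was chosen on these levels. Prdm9, a meiotic histone methyltransferase, was at 1.42 CPM in c-Kit+ and 9.01 CPM in leukaemia cells, and Prdm2 was at 32.6 and 73.0 CPM. Within the KO label 5 members were measured, 2 of them higher and 3 lower in leukaemia, and only Mecom exceeded 2-fold. Over all genes 47.6% were higher there and 12.7% past 2-fold upward. Prdm16, the closest relative of Mecom and singled out after its values were seen, was at 3.08, 3.32, 1.02 and 2.21 CPM in the order above. In the c-Kit+ stem gate Prdm16 was at 24.4 (WT) and 24.1 CPM (KO).

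Other transcription factors of blood stem cells went in both directions between WT marrow and WT leukaemia. Of 28 listed, 22 were measured, 14 were higher in leukaemia and 8 lower, 12 and 7 of them past 2-fold, with a median log2 ratio of 1.26. Of all genes 66.1% were higher, and 16.0% were past 2-fold upward and 6.01% downward. With size factors, which shifted the median of all genes from 0.27 to -0.06 and the genes past 2-fold from 1608 higher and 603 lower to 875 and 966, the split was 13 to 9 and the median 0.92. Hoxa9 and Hoxa10, homeobox genes that MLL fusions activate, were at 5.36 and 0.510 CPM in WT c-Kit+ and 174 and 62.2 CPM in WT leukaemia cells. Pbx3, a cofactor of HOX proteins, went from 49.1 to 991 CPM and Ikzf2, a zinc finger factor of the Ikaros family, from 35.2 to 576 CPM. Gata2, a regulator of stem cell formation that Mecom is known to act on, went from 21.6 to 2.01 CPM within the KO label. Within that label 15 of 23 measured factors were higher and 8 lower, with a median of 0.59 against -0.04 over all genes, of which 47.6% were higher.

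Surface and other genes of stem cells, many of which also served as gate markers, went both ways. Of 21 listed, 11 were measured in WT marrow and leukaemia, with 5 higher and 6 lower, 3 and 8 with size factors, and a median log2 ratio of -0.07. The share of all genes that were higher was 66.1%, and 46.5% with size factors. Adgrg1, an adhesion receptor, went from 39.3 to 5.83 CPM and Ly6a, the stem cell antigen SCA-1, from 24.0 to 9.54 CPM. Cdkn1c, the cell cycle inhibitor p57, went up with Mecom, from 0.510 to 49.7 CPM within the WT label and from 0.90 to 51.9 CPM within the KO label. Itga6, an integrin, went from 21.2 to 65.9 CPM within the WT label.

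Genes described as targets of EVI1 lay on both sides. All 12 were measured, and 6 were higher and 6 lower in leukaemia within each label, with medians of 0.19 in WT and -0.45 in KO against 0.27 and -0.04 over all genes. Past 2-fold, 2 were higher and 4 lower in WT, and 1 was higher and 6 lower in KO. Of all genes 66.1% were higher within the WT label, with 16.0% past 2-fold upward and 6.01% downward. Within the KO label these shares were 47.6%, 12.7% and 13%. Setbp1, which codes for a binding partner of the SET protein, was at 25.1 CPM in WT c-Kit+ and 5.18 CPM in WT leukaemia cells. Between the leukaemias 5 of 10 measured targets were higher and 5 lower in the library labelled KO, while 25.5% of all genes were higher. With size factors the targets again split 5 to 5, and 47.0% of all genes were higher. Angpt1 was at 79.4 CPM in the WT and 16.5 CPM in the KO library there.

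All 14 listed partners of EVI1 were measured in WT marrow and leukaemia, 10 higher and 4 lower in leukaemia, a split that was 7 to 7 with size factors, while 66.1% of all genes were higher. Among them Spi1, the myeloid master regulator PU.1, went from 217 to 426 CPM and Gata1, the erythroid regulator, from 20.4 to 1.81 CPM. Within the KO label 4 were higher and 10 lower, while 47.6% of all genes were higher. Between the leukaemias 3 of 12 were higher and 9 lower in the library labelled KO, and 5 and 7 with size factors, against 25.5% of all genes higher. Dnmt3a, a DNA methyltransferase, was at 42.6 and 16.0 CPM and the acetyltransferase gene Kat2b at 104 and 40.4 CPM.

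The contrast of the stem gate with all other cells was large for both genes in normal marrow. Mecom was 67.0-fold (59.0 to 76.3) above other cells in WT and 56.7-fold (50.1 to 64.4) in KO c-Kit+ marrow, and Hlf 18.6-fold (16.9 to 20.6) and 16.6-fold (15 to 18.3). Meis1, a HOX cofactor that was not a gate marker, was 18.8-fold higher in WT and 17.5-fold in KO. In WT leukaemia the contrast was 1.07-fold (1.02 to 1.11) for Mecom and 11.9-fold (6.87 to 19.7) for Hlf. That of Hlf rests on 21 UMIs in 8 of the 168 gate cells, so its interval is too narrow. In KO leukaemia the contrast was 0.922 (0.840 to 1.01) for Mecom and 43.0-fold (26.2 to 67.5) for Hlf, the latter from 23 UMIs in 28 cells. Of those UMIs 13 lay in 1 cell, and without it the contrast of Hlf was 18.9-fold.

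Transcripts annotated inside Mecom were also far higher in leukaemia, and genes beside it were not. All 7 gene models that lie within the gene were in the files, 6 of them wholly between its starts. Of these 5 reached 5 CPM in a library, each in leukaemia alone, so that filter favours high ratios. The WT leukaemia over c-Kit+ ratios of those 5 ran from 30.1 to 819, with a median of 61.1. Gm10258 and Gm38362, which did not reach 5 CPM, had ratios of 25.4 and 45.6, from 10 and 4 UMIs in WT marrow. Mecomos, an antisense transcript that runs over the downstream start, gave 1 and 5 UMIs in WT and KO marrow and 822 and 1449 UMIs in WT and KO leukaemia. Gm37652, 44.2 kb into the gene, gave 8, 5, 491 and 421 UMIs in that order, and Gm38197 gave 40, 23, 1209 and 1803. Use of strand and of intronic reads in counting is not given in the sources used here, so reads of Mecom and of models inside it may be split between them.

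The inner models followed Mecom cell by cell. In c-Kit+ marrow any of the 7 was found in 17.3% of WT and 13.1% of KO cells with a Mecom UMI and in 0.0250% and 0.0155% of cells without. In leukaemia they were found in 29.8% of WT and 37.0% of KO cells with Mecom and in 1.53% and 2.14% of cells without. The WT T or NK gate held none in 103 cells, which at 3 counts allows a UMI in up to 2.91% of cells, and the KO gate held 4 UMIs.

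Outside Mecom, 6 of 34 genes annotated within 1 Mb reached 5 CPM, all on the side of its upstream start. Their ratios of WT leukaemia to c-Kit+ cells ran from 0.620 to 2.69, with a median of 1.3. The nearest, Mynn, was at 16.4, 15.8, 15 and 16.5 CPM in the 4 libraries, and Sec62, of the protein translocation channel, at 201, 194, 187 and 172 CPM. Skil, a repressor of SMAD signalling, was at 39.3 and 35.1 CPM in c-Kit+ cells and at 24.4 and 77.6 CPM in WT and KO leukaemia.

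Around Hlf several neighbours were also lower in leukaemia, though less so. Of 16 genes within 1 Mb, 6 reached 5 CPM, with ratios from 0.202 to 1.92 and a median of 0.463 within the WT label. Tom1l1 went from 7.12 to 1.44 CPM and Stxbp4 from 12.7 to 3.58 CPM within the WT label. Mmd, the nearest of the 6 to the annotated span of Hlf, was at 7.49 and 7.54 CPM and Pctp at 6.25 and 12 CPM. Within the KO label the 6 ratios ran from 0.124 to 0.932, so that all 6 were lower in leukaemia. No gene model is annotated inside Hlf.

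**Figure D5:**
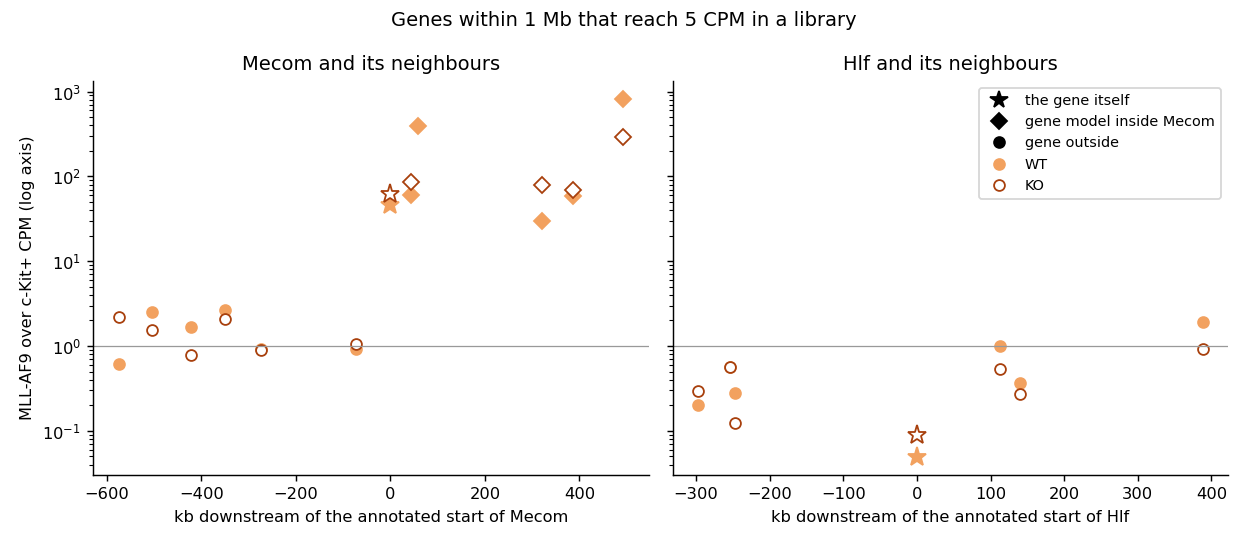
Ratio of MLL-AF9 to c-Kit+ CPM (log axis) for Mecom (left), Hlf (right) and the genes within 1 Mb that reach 5 CPM in a library. The other axis is the distance in kb from the annotated start to the end of higher coordinate. For genes upstream of a start that is their far end. Points are within the WT (filled) and KO label (open), and 1 model inside Mecom with 0 UMIs in KO c-Kit+ cells has no KO point. Models inside Mecom lie between 30.1 and 819 within the WT label, genes outside it between 0.620 and 2.69, and genes around Hlf between 0.202 and 1.92.

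The genes with the most similar pattern were sought by Pearson r of log2(CPM + 1) over units of 1 library and 1 gated class with 100 or more cells, which share library and depth and are given with no test. Over the 21 units of c-Kit+ marrow, a set chosen after the data were seen, the 5 genes nearest to Mecom were Myct1 (0.95), Samd12 (0.95), Hmga2 (0.92), Spns2 (0.89) and Prkg1 (0.88), and Hlf itself had 0.80. Those nearest to Hlf were Slco3a1 (0.86), Dipk1b (0.83), Mecom (0.80), Hmga2 (0.79) and 9030619P08Rik (0.79). Myct1 and Samd12 were at 10.5 and 8.13 CPM in WT c-Kit+ cells and at 0.231 and 0.335 CPM in WT leukaemia, so there they went with Hlf and not with Mecom.

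Over all 35 units, in which marrow and leukaemia lie apart, the order for Mecom was Hoxa5 (0.97), Hoxa10 (0.96), Hoxa9 (0.96), Hoxa3 (0.93) and Gm38197 (0.92), and for Hlf it was Slco3a1 (0.77), Myct1 (0.76), Samd12 (0.76), Rnf180 (0.74) and Vat1 (0.73). Mecom and Hlf had an r of -0.25 with each other. Over the 14 leukaemia units the genes nearest to Mecom were Gm38066 (0.99), which lies inside it, Mef2c (0.98), Csf2ra (0.98), Fes (0.97) and Lonrf1 (0.97), and its r with Hlf was 0.29. Mef2c, a myeloid transcription factor, was at 228 and 214 CPM in c-Kit+ cells and 931 and 1170 CPM in WT and KO leukaemia, the same order as Mecom.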

How the data were processed

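For each of 4 libraries the authors deposited a matrix of unnormalized UMI counts. The tool and build named for it are Cell Ranger 7.1.0 and mm10, per the submitters' processing notes. The gene annotation, and whether barcodes were selected further, are not given in the sources used here. Positions come from GENCODE M21 (GRCm38).

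Cells needed at least 500 genes and 1000 UMIs, of which no more than 10% mitochondrial, and Scrublet doublets (scanpy 1.11.5, expected rate 0.08; 3.41% to 4.72% called) were removed. UMIs were summed over cells and scaled to CPM, and log2 ratios used a pseudocount of 1 CPM. Intervals are exact (Poisson, Clopper-Pearson or conditional binomial, 95%). With 1 library per group no test was made. Ratio code was tested on simulated data.

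1 listed gene is not reported here. The 14 gates counted markers with a UMI, and their cuts were set after the marker counts had been seen. The members, gene lists and markers were chosen with earlier results of these data known. Genes named from a list are at most 4 per comparison, by size of the log2 ratio among those averaging 5 CPM, with all PAR bZIP genes, neighbours that reach 5 CPM and the 5 genes of highest r. Alternatives were other cell filters, doublets kept, size factors, equal weight per cell, thinning, other pseudocounts and level filters, matched composition, stricter gates and other units.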

Additional observations from a re-analysis of the deposited data

Results flagged for a closer look

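The library labelled KO differed from WT in opposite directions in leukaemia and in c-Kit+ marrow for both genes. Mecom was at 1.27 times its WT level in MLL-AF9 cells and at 0.932 times in c-Kit+ cells. With equal weight per cell its c-Kit+ log2 ratio was 0.0012, so the opposite direction of Mecom did not hold in that setting. Hlf was at 1.59 times its WT level in MLL-AF9 cells and at 0.869 times in c-Kit+ cells. With 1 library per group the difference between these effects was not tested.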

How the results depend on the processing

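No paired analysis was possible because each group is 1 library and no test was run. The reported log2 ratios hold the pseudocount, while the intervals printed with fold ratios do not, so counting error was set about each reported value. Of the alternative log2 ratios of the genes, 36 stayed within that error. Another 21 moved beyond it with their direction kept, and 1 changed sign. That 1 was Mecom in KO against WT c-Kit+ cells, -0.10 as reported and 0.0012 with equal weight per cell. For Mecom in KO against WT leukaemia (0.35) the values were 0.37 with stricter cell filters, 0.70 with size factors, 0.21 when cells weighed equally, 0.26 after thinning and 0.39 with matched composition. For Mecom in WT leukaemia against c-Kit+ (5.44) they were 5.52 with doublets kept, 5.33, 5.10, 5.94 and 5.68 in that same order, and 6.48 with matched composition. Within the KO label (5.89) they were 5.80 with stricter filters, 6.14 with equal weight, 5.98 after thinning and 8.68 with matched composition. Matched composition gave -0.21 for Mecom and -0.30 for Hlf in KO against WT c-Kit+ cells, and for Hlf -2.93 within the WT and -1.85 within the KO label in leukaemia against c-Kit+, where a pseudocount of 0.1 CPM gave -4.21 and -3.39. Genes past 2-fold at a mean of 25 CPM numbered 792 (leukaemia KO against WT), 2 (c-Kit+ KO against WT), 1012 (WT leukaemia against c-Kit+) and 1284 (the same in KO), and with no filter on level 30, 3671 and 3809 in the last 3, against 1801, 9, 2211 and 2491. With 1 marker more per gate, 61 of 92 class levels stayed within their interval. The count of Hlf in leukaemia, 83 and 144 UMIs, limits every class value there. Leaving out the KO leukaemia cell with 13 Hlf UMIs, an alternative chosen after seeing the data, gave 0.28 for Hlf in KO against WT leukaemia and -2.91 in KO leukaemia against c-Kit+.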

Other observations

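Leukaemia cells of the myeloid gates that held no Mecom UMI after thinning to 2000 UMIs were rich in stefin A transcripts, which code for small cysteine protease inhibitors of neutrophils. They made up 38.5% of such cells in WT and 24.1% in KO. The 7 stefin A cluster genes, a list made after these values were seen, summed to 9731 CPM in WT cells without and 1988 CPM in WT cells with 2 or more Mecom UMIs, and to 6207 and 1619 CPM in KO cells. Within the secondary granule gate, cells in which stefin genes made up 1% or more of UMIs were at 293 CPM of Mecom (280 to 306) in WT, against 1062 CPM (1050 to 1074) in the others. In KO these values were 576 (556 to 597) and 1327 CPM (1317 to 1337). Median depths were 7751 and 7161 UMIs in WT and 9840 and 8560 UMIs in KO. The stefin-rich cells were thus deeper, and Mecom was lower in deeper bins of leukaemia cells. The part of depth in this contrast was not tested.

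Cells with 2 or more Mecom UMIs were richer in Cacna1e, a calcium channel gene, at 159 against 31.0 CPM in WT and 253 against 71.5 CPM in KO. Hoxa9 was at 192 against 163 CPM in WT and 114 against 100 CPM in KO, and Meis1 at 618 against 404 CPM and 392 against 293 CPM. Col1a1 and Vcam1, genes of stromal cells and macrophages, were also higher in WT cells without Mecom, at 104 against 5.04 CPM and 121 against 28.9 CPM. Haemoglobin genes were at 1276 CPM in WT cells without and 534 CPM in WT cells with 2 or more Mecom UMIs, and at 4362 and 1407 CPM in KO cells. The part of these in the contrast was not tested. Of cells without Mecom 26.8% in WT and 18.7% in KO were mitotic, against 14.6% and 11.7% of those with 2 or more UMIs.

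Barcodes that failed the cell filters, with median counts of 837 and 884 UMIs, held Mecom at 1135 CPM (1073 to 1199) in WT and 959 CPM (912 to 1007) in KO leukaemia.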
